A study of Mus musculus with 11 samples.

Results

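The subject is a group of 10 chemokine genes of the vessel wall: Ccl2, Ccl7, Ccl8, Ccl11, Ccl19, Cxcl1, Cxcl12, Cxcl13, Cxcl14 and Cx3cl1. They were chosen by name from the gene symbols of the deposited expression table, which holds 9 of them, and matched by Ensembl ID to the deposited counts, which hold all 10 among 48709 mouse genes. The study made bulk RNA-seq libraries from the aortic arch of 11 mice at postnatal day 11. WT stands for 5 wild-type littermates (Tgfbr2+/+), and Het for 6 mice with 1 Tgfbr2 allele carrying the G357W substitution, a germline model of Loeys-Dietz syndrome type II, an inherited connective tissue disorder with aortic aneurysms. No animal was treated, and strain, sex and litters are not in the labels used here. Each library was taken as 1 animal.

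Chemokines are small secreted proteins that bind glycosaminoglycans on cells and matrix and steer leukocytes through G protein-coupled receptors. They are classed by the spacing of their first cysteines as CC, CXC or CX3C chemokines. Inflammatory chemokines such as CCL2 and CXCL1 are induced by cytokines and recruit monocytes and neutrophils, whereas homeostatic chemokines such as CXCL12 and CCL19 are made steadily by stromal cells and place stem cells, progenitors and lymphocytes. In arteries, smooth muscle cells, adventitial fibroblasts and the endothelium are known sources, and CCL2 is a well-studied attractant of monocytes in aortic disease.

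The libraries held 13113467 to 19327935 counts. The labels give VSMC and EC as cell types, that is vascular smooth muscle and endothelium, and defining markers of both were present: 8 smooth muscle markers summed to 30473 to 41502 CPM (counts scaled to library size) and 10 endothelial markers to 400.1 to 681.4 CPM, but 12 fibroblast markers also reached 1893 to 2939 CPM. All 5 WT libraries and Het 1 and Het 2 held 900 to 1139 counts of Xist, the transcript of the inactive X chromosome, and Het 3 to Het 6 held 0 to 10, so no WT library matches the latter 4. A score of Y-linked genes less Xist (log2 scale) was -9.65 to -8.97 in the Xist-positive libraries and 5.23 to 8.79 in Het 3 to Het 6. These are the patterns of female and of male animals. Counts of Tgfbr2 do not separate the alleles, and its mean level (WT 41.3 ± 4.29 CPM, SD, n = 5; Het 39.0 ± 8.22 CPM, SD, n = 6) does not check the labels. In bulk tissue, fewer cells of a type and less RNA per cell cannot be told apart.

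Of the 7 chemokines with enough counts to test, Ccl2 rose and Cxcl12 fell in Het, while Ccl7, Ccl11, Ccl19, Cxcl1 and Cx3cl1 did not pass the threshold. The threshold was a Benjamini-Hochberg adjusted p under 0.05 in edgeR's quasi-likelihood test across 14757 genes. Over all of these genes 5.03% passed, 2.65% higher and 2.38% lower in Het, which is the background for the 1 member called in each direction. Both calls were close to the threshold, and none of the 25 alternatives changed the direction of either. By DESeq2, where 8.78% of genes passed, the same 2 members were called. The share over all genes was 0.847% with a score of sex-linked genes as a covariate, 0.218% in the Xist-positive libraries, 2.23% with the replicate number as a block and 2.84% without WT 1 and WT 2, and under each of these 4 settings 0 members passed. With a covariate for the number that the deposited column names carry, 2.81% passed, Ccl2 among them. WT 1 and WT 2 stood apart on the first principal component, the main axis of variation between libraries (24.1% of the variance). They lay at -49.7 and -47.1, the other WT libraries at -16.4 or above and the Het libraries at 14.7 to 29.1. Whether the lower share without them reflects their position or the smaller WT group was not tested. The other 3 members, Ccl8, Cxcl13 and Cxcl14, had too few counts.

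The RefSeq promoter table (GRCm38.p6) holds 7 of the 10 members, without Ccl2, Ccl7 and Ccl11. Shown are the 250 bases before the transcription start of Cxcl12, the abundant member that fell, and of Cxcl1, an inflammatory member. Both are written 5′ to 3′ on the gene's own strand, which is the plus strand. In Cxcl12 (chr6:117168285-117168534) capitals mark the GC box, GGGCGG on either strand, and in Cxcl1 (chr5:90890995-90891244) they mark a binding motif of the inflammatory transcription factor NF-kB, spelled GGGA, any base, TT, any base and CC, on either strand.

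Cxcl12: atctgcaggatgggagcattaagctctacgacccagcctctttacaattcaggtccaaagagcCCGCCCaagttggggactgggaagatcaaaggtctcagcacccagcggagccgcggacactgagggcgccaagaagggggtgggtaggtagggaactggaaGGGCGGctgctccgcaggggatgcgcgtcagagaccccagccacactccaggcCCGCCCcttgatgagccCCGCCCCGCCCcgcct
Cxcl1: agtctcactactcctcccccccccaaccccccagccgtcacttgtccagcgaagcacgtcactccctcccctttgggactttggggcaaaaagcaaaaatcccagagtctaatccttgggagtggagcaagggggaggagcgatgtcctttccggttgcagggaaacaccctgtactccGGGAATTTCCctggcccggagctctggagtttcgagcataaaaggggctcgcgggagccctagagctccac

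The Cxcl12 window had 5 GC boxes, of which the last 2 share a base, and a GC content of 64.4%, against a median of 52.4% over 32851 RefSeq promoters. At least 1 GC box stood in 32.7% of those promoters. The Cxcl1 window held 1 NF-kB match, starting 71 bases before the start, and 0.98% of all promoters held one. No other member's window had the NF-kB match. Cx3cl1 was the only other member with a GC box, 1 in number, so the homeostatic Ccl19, Cxcl13 and Cxcl14 had none in these windows. The RefSeq start can differ from the gene annotation used elsewhere here. The Cx3cl1 window (chr8:94771930-94772179) runs past the annotated start at 94772009, and that of Ccl19 (chr4:42756366-42756615, minus strand) past 42756577. Both windows lie largely inside the annotated gene and may not describe its upstream sequence. The GC content was 59.2% in the Cxcl1 window and 64.8% in that of Cx3cl1. A TATA box, TATAAA, was also searched for and stood in the windows of Ccl8, Cxcl13 and Cx3cl1 and in 12.4% of all promoters. Searches for a Smad box (GTCTAGAC) and an AP-1 motif (TGA, any base, TCA) gave no match in any member's window. The Cxcl12 and Cxcl1 windows are single examples and do not stand for homeostatic and inducible chemokines. The motif letters were chosen after these sequences had been read, a match is a description and not a shown binding site, and no binding was measured here.

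Cxcl12 dominated the group. Per kilobase of annotated exon, its level in WT was 41.3 ± 6.77 CPM per kb (SD, n = 5), against 2.76 ± 1.14 for Ccl2, 1.83 ± 1.00 for Ccl11, 1.36 ± 0.40 for Ccl19, 0.89 ± 0.55 for Ccl7, 0.57 ± 0.35 for Cxcl1 and 0.31 ± 0.13 for Cx3cl1. Only the step from Cxcl12 to Ccl2 had no overlap between libraries in WT, and every later neighbour in the order overlapped the next. In Het, Cxcl12 (28.6 ± 6.64 CPM per kb, SD, n = 6) and Ccl2 (7.20 ± 3.45) each stood clear of the next, whereas Ccl11 (1.99 ± 0.88), Ccl7 (1.41 ± 0.85), Cxcl1 (1.17 ± 0.58) and Ccl19 (0.77 ± 0.36) followed with overlapping values. Lengths are unions of all annotated exons, so genes with long alternative exons, such as Cxcl12, are understated. Among the summed CPM of all 10 members, without correction for length, Cxcl12 made up 96.1 to 98.1% in the WT libraries and 91.9 to 94.97% in Het.

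**Figure D1:**
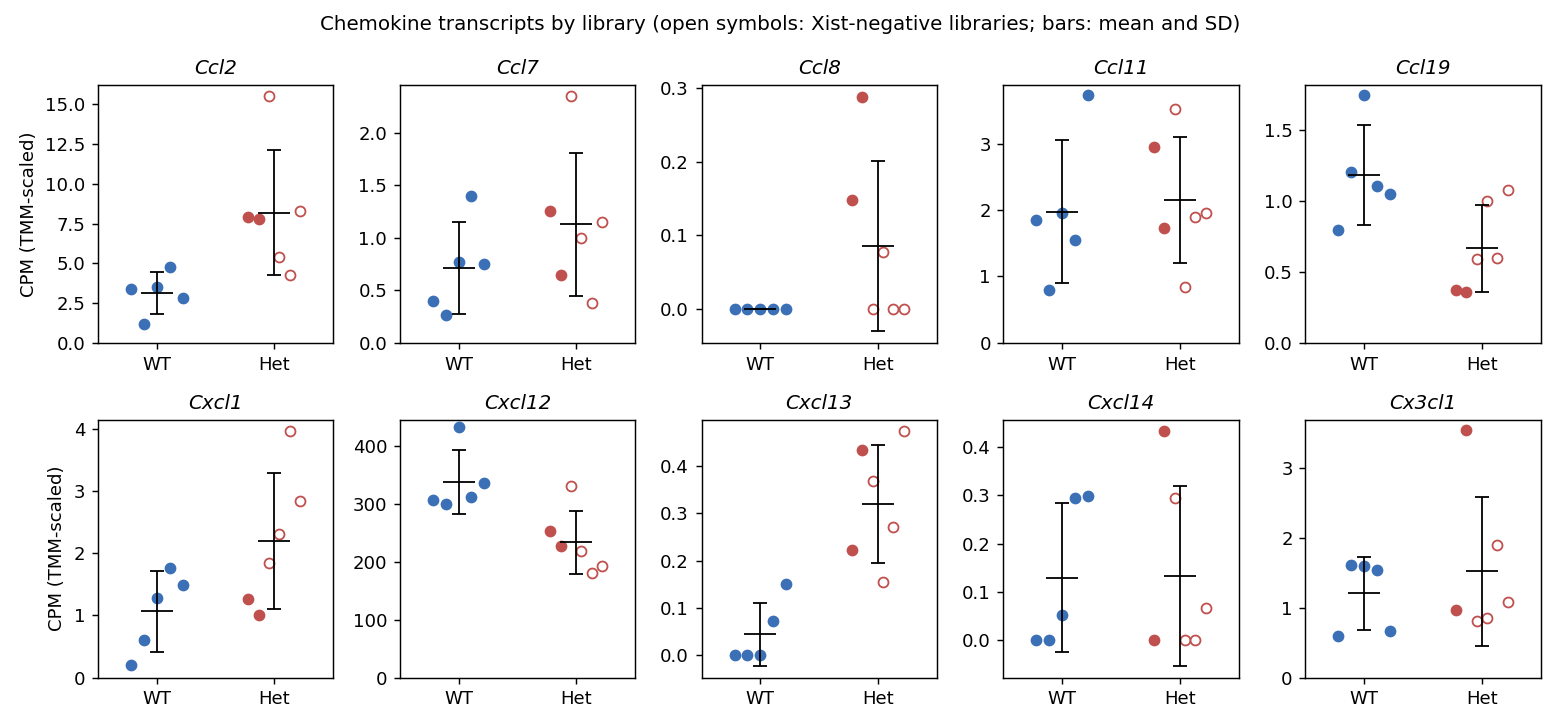
CPM of each of the 10 chemokines (vertical axes, 1 scale per gene) in the 5 WT and 6 Het libraries; each point is 1 library, open symbols are the 4 Xist-negative libraries, and the bars give the mean and SD. For Ccl2, 5 of 6 Het libraries exceeded all WT libraries, and for Cxcl12, 5 of 6 lay under all of them.

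Among the inflammatory CC chemokines, Ccl2, the main monocyte attractant and a ligand of CCR2, rose in Het. Ccl2 (ENSMUSG00000035385, chromosome 11, 82035571 to 82037453, plus strand of GRCm38) was at 3.38, 1.21, 3.49, 4.78 and 2.84 CPM in WT 1 to WT 5 and at 7.91, 7.78, 15.5, 5.38, 4.28 and 8.29 CPM in Het 1 to Het 6. Het 3 was highest and WT 2 lowest, and the groups overlapped only because Het 5 lay below WT 4. The means were 3.14 ± 1.29 CPM (SD, n = 5) and 8.19 ± 3.92 CPM (SD, n = 6), a log2 fold change of 1.38 ± 0.35 (SE), or 2.60-fold, with adjusted p = 0.0308 by edgeR's quasi-likelihood test. The level was low in absolute terms, resting on 18 to 68 counts per WT library and 70 to 211 per Het library. Gm17268, which overlaps Ccl2 on the other strand in the annotation, had 0 counts in every library.

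The rise of Ccl2 was of similar size in the libraries of like Xist status, but the call did not last. Het 1 and Het 2, both Xist-positive, were above all 5 WT libraries, and the 4 Xist-negative Het libraries ranged from 4.28 to 15.5 CPM. Among Xist-positive libraries (5 WT, 2 Het) the log2 fold change was 1.33 ± 0.39 (SE, edgeR adjusted p = 0.283), and with the sex score it was 1.43 ± 0.46 (adjusted p = 0.236). Without Het 3 the log2 fold change was 1.10 ± 0.31 (adjusted p = 0.0581), and the call was also lost without WT 1, WT 2, WT 3, WT 5, Het 2 or Het 6 (highest adjusted p 0.0619, without WT 2).

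Leukocyte markers differed between the same libraries. Het 3, the highest for Ccl2, had the highest sum of 12 T cell and thymocyte markers (51.0 CPM) and, at 173.6 CPM, the second-highest sum of 12 macrophage markers, and WT 2, the lowest for Ccl2, had the lowest sums of both (6.70 and 64.6 CPM). The highest macrophage sum was that of Het 1 (190.9 CPM), where Ccl2 was at 7.91 CPM. Het 3 also had the highest fibroblast sum (2939 CPM), and Thy1 alone made up 48.8% of the T cell sum. The macrophage sums ranged from 64.6 to 157.3 CPM in WT and from 84.4 to 190.9 CPM in Het. Of 11 tested macrophage markers 1 rose, the receptor tyrosine kinase gene Mertk (0.54 ± 0.11 on the log2 scale, SE, edgeR adjusted p = 0.00979), and 10 did not pass. Mertk passed with the sex score, and not in Xist-positive libraries or without WT 1 and WT 2. Of these 11 markers 10 were higher in Het by their fold change (median log2 value 0.43), 3 at an unadjusted p under 0.05. The T cell sums ranged from 6.70 to 25.1 CPM in WT and from 12.1 to 51.0 CPM in Het, and none of 6 tested markers passed in edgeR, DESeq2 or limma voom (0 at an unadjusted p under 0.05), while the fold change of 6 of 6 was above 0 (median log2 value 0.82). No marker of the macrophage and T cell lists was at 0 in all libraries. Monocyte and dendritic cell markers went the other way, with 26.1 CPM in WT 2 and 17.3 CPM in Het 3. Granulocyte and mast cell markers were at 8.98 and 29.0 CPM there, and B cell markers at 64.2 and 73.0 CPM. In these lists 1 of 4, 2 of 6 and 1 of 6 tested markers were higher in Het. Their median log2 values were -0.19, -0.054 and -0.44, and none passed in edgeR. The part of leukocytes in the Ccl2 result was not tested.

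Ccl7, Ccl11, Ccl12 and Ccl8 follow Ccl2 on chromosome 11 on the same strand, and none passed. Ccl7, another ligand of CCR2, begins 10.1 kb from the start of Ccl2. It was at 0.40, 0.27, 0.77, 1.40 and 0.75 CPM in WT 1 to WT 5 and at 1.26, 0.65, 2.35, 1.00, 0.38 and 1.15 CPM in Het 1 to Het 6. The groups overlapped widely, with Het 3 again the highest, and the log2 fold change was 0.65 ± 0.50 (SE, edgeR adjusted p = 0.530) on 4 to 32 counts per library. It was 0.30 ± 0.48 without Het 3 and 1.02 ± 0.53 without WT 4.

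Ccl11, or eotaxin, which attracts eosinophils through CCR3, begins 22.3 kb from Ccl2. It was at 1.85, 0.80, 1.95, 1.54 and 3.74 CPM in WT 1 to WT 5 and at 2.96, 1.73, 3.53, 0.85, 1.90 and 1.96 CPM in Het 1 to Het 6. Neither group stood apart, with WT 5 and Het 3 the highest, and the log2 fold change was 0.12 ± 0.39 (SE, edgeR adjusted p = 0.914). Its sign was not stable, with -0.074 without WT 2, -0.069 without Het 3 and 0.48 without WT 5.

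Ccl12, a mouse chemokine that also binds CCR2 and is no member of the group, differed by 0.39 ± 0.68 on the log2 scale (SE, edgeR adjusted p = 0.814), with 2 to 34 counts per library. Ccl8, a CC chemokine at the far end of this stretch (79.6 kb from Ccl2), had 0 counts in all 5 WT libraries, which allows up to 0.155 to 0.229 CPM in each. Het 1, Het 2 and Het 4 had 2, 4 and 1 counts and the other 3 Het libraries had 0. With no filter on low counts the adjusted p of Ccl8 in edgeR was 0.259. Ccl1, the next gene of the cluster, had no count in any library.

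**Figure D2:**
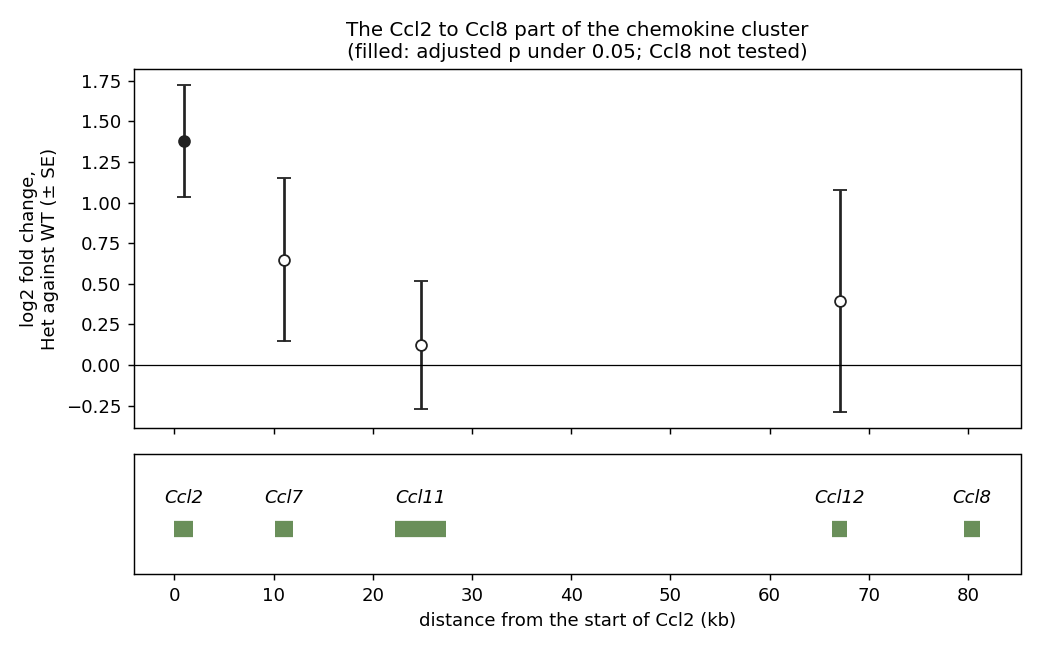
Upper panel: log2 fold change of Het against WT (± SE, edgeR) for the tested genes of the Ccl2 cluster; lower panel: their positions by distance from the start of Ccl2 in kb. Ccl2 at 1.38 is filled because it passed an adjusted p of 0.05, and Ccl7, Ccl11 and Ccl12 at 0.65, 0.12 and 0.39 did not.

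Ccl2 and Ccl7 varied together within the groups. After each group's mean was subtracted from the log2 CPM, their Pearson r over the 11 libraries was 0.84 (Spearman rho 0.76), the highest of the 21 pairs among the 7 tested members, which ranged from -0.36 to 0.84. Without WT 2 and Het 3, the libraries farthest from the median of Ccl2, r was 0.73. For Ccl2 and Ccl11 r was 0.61 and fell to 0.25 without the same libraries, so that relation rests on them. Cxcl12, on chromosome 6, had values near that of Ccl2 and Ccl11 and below that of Ccl2 and Ccl7. Its r was 0.64 for Ccl7 (0.48 without WT 2 and Het 5) and 0.62 for Ccl2 (0.39 without WT 2 and Het 3). Between the groups, however, Ccl2 and Cxcl12 went opposite ways. These values describe libraries that share tissue dissection and depth, and no test was made.

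Cxcl1, a neutrophil attractant that acts through CXCR2, did not pass. It was at 0.20, 0.60, 1.28, 1.76 and 1.49 CPM in WT 1 to WT 5 and at 1.26, 1.01, 1.84, 2.31, 3.95 and 2.83 CPM in Het 1 to Het 6. Het 3 to Het 6, the Xist-negative libraries, lay above every WT library, and Het 1 and Het 2 lay within the WT range. The log2 fold change was 1.05 ± 0.47 (SE, edgeR adjusted p = 0.232) in all libraries, 0.092 ± 0.72 (adjusted p = 0.985) in the Xist-positive libraries alone and 0.059 ± 0.59 (adjusted p = 0.982) with the sex score. Xist status and genotype cannot be told apart in the Xist-negative libraries, which are all Het. Cxcr2, the receptor, had at most 2 counts in any library.

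Cxcl12, which retains haematopoietic progenitors and patterns vessels through CXCR4 and is scavenged by ACKR3, fell in Het. Cxcl12 (ENSMUSG00000061353, chromosome 6, 117168535 to 117181367, plus strand of GRCm38) was at 306.5, 299.9, 433.6, 311.9 and 337.0 CPM in WT 1 to WT 5 and at 253.4, 227.2, 331.7, 219.5, 180.7 and 192.4 CPM in Het 1 to Het 6. WT 3 stood above all others, and the groups overlapped only because Het 3 lay within the WT range. The means were 337.8 ± 55.4 CPM (SD, n = 5) and 234.1 ± 54.3 CPM (SD, n = 6), a log2 fold change of -0.53 ± 0.14 (SE), with WT 1.44-fold higher and adjusted p = 0.0453 by edgeR's quasi-likelihood test. With 2853 to 8445 counts per library, counting error is small beside the spread between animals.

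The call of Cxcl12 was lost when any library other than Het 3 was left out. The highest adjusted p was 0.122, without WT 3 (log2 fold change -0.42 ± 0.14, SE, edgeR), and without Het 3 the change was -0.65 ± 0.12 (adjusted p = 0.00657). In the Xist-positive libraries alone the log2 fold change was -0.49 ± 0.16 (adjusted p = 0.370) and with the sex score -0.43 ± 0.21 (adjusted p = 0.473). Het 1 and Het 2 lay below every WT library, and the Xist-negative Het libraries ranged from 180.7 to 331.7 CPM.

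Fibroblasts are a known source of Cxcl12, and 12 adventitial fibroblast markers summed to 1998 to 2781 CPM in WT and 1893 to 2939 CPM in Het, none of them at 0 in all libraries. All 12 were tested, and 2 fell, Pi16 (-0.62 ± 0.10 on the log2 scale, SE, edgeR adjusted p = 0.00194) and the fibulin gene Fbln1 (-0.64 ± 0.15, adjusted p = 0.0227). The list had 0 calls with the sex score and 0 in Xist-positive libraries, only Pi16 passed without WT 1 and WT 2, and DESeq2 called 3, with Sfrp4. Het 3, the Het library with the highest Cxcl12, also had the highest fibroblast sum (2939 CPM), and WT 3 with the highest Cxcl12 of all had 2522 CPM. Other libraries did not follow this order. Cxcl12 was at 311.9 CPM in WT 4, where the fibroblast sum was 2781 CPM, and at 253.4 CPM in Het 1, where it was 2697 CPM. In WT 2 the sum was 1998 CPM and Cxcl12 was at 299.9 CPM. The part of these cells in the Cxcl12 result was not tested.

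Of the Cxcl12 receptors, Ackr3, an atypical receptor that removes CXCL12 without G protein signalling, was the abundant one, with a mean of 67.0 ± 9.85 CPM over the 5 WT libraries and 82.0 ± 9.51 CPM over the 6 Het libraries (SD). Its log2 fold change was 0.29 ± 0.11 (SE, edgeR adjusted p = 0.144). Cxcr4, the signalling receptor, had 1 to 40 counts per library and differed by 0.95 ± 0.64 on the log2 scale (adjusted p = 0.453), or by 1.88 ± 0.65 without WT 3 (adjusted p = 0.137).

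Of the remaining homeostatic chemokines, Ccl19 had counts in every library and was tested, and Cxcl13 and Cxcl14 were near the limit of detection. Ccl19, a ligand of CCR7 that draws T cells and dendritic cells, was at 0.79, 1.21, 1.75, 1.10 and 1.05 CPM in WT 1 to WT 5 and at 0.37, 0.36, 0.59, 1.00, 0.60 and 1.08 CPM in Het 1 to Het 6. Het 1, 2, 3 and 5 lay below every WT library and Het 4 and Het 6 within their range. The log2 fold change was -0.83 ± 0.39 (SE, edgeR adjusted p = 0.255). Among Xist-positive libraries, where Het 1 and Het 2 held the lowest levels, it was -1.67 ± 0.62 (adjusted p = 0.439), and with the sex score -1.68 ± 0.55 (adjusted p = 0.242). Ccl19 has near-identical copies in the mouse genome and its reads may be split among them, and 4930578G10Rik, which overlaps it on the other strand, had 0 counts in all libraries. Ccr7 had 0 to 20 counts per library and was not tested, and Ccl21a, its other ligand, differed by -0.47 ± 0.49 on the log2 scale (adjusted p = 0.663).

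Cxcl13, the B cell attractant that binds CXCR5, had 0, 0, 0, 1 and 2 counts in WT 1 to WT 5 and 3, 6, 5, 2, 5 and 7 counts in Het 1 to Het 6. The groups met at 2 counts, in WT 5 and Het 4. The summed counts, 3 in WT and 28 in Het, gave a ratio of 8.08 (Het over WT, exact binomial 95% interval 2.497 to 41.6), which covers counting error only. With no filter on low counts, where 2.32% of genes passed, edgeR gave an unadjusted p of 0.0109 and an adjusted p of 0.187. Cxcr5 differed by 0.37 ± 0.36 on the log2 scale (SE, adjusted p = 0.637), though an overlap with Bcl9l on the other strand makes its counts uncertain.

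Cxcl14, a CXC chemokine of epithelia and fibroblasts, had 0 to 4 counts per WT library and 0 to 6 per Het library. The sums of 9 and 11 counts gave a ratio of 1.06 (exact binomial 95% interval 0.40 to 2.89, counting error only). With no filter on low counts edgeR gave an adjusted p of 0.986, and no difference between the groups was detectable at this depth.

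Cx3cl1, or fractalkine, is made as a membrane-bound adhesion molecule of endothelium and smooth muscle and binds CX3CR1 on monocytes and macrophages. It was at 0.60, 1.61, 1.59, 1.54 and 0.67 CPM in WT 1 to WT 5 and at 0.96, 3.53, 0.81, 0.85, 1.90 and 1.08 CPM in Het 1 to Het 6. Het 2 and Het 5 lay above every WT library, and the other 4 Het libraries lay within the WT range. The log2 fold change was 0.33 ± 0.45 (SE, edgeR adjusted p = 0.750), and it was -0.093 without Het 2, 0.16 without WT 1 and 0.19 without WT 5. Among Xist-positive libraries it was 0.90 ± 0.60 (adjusted p = 0.718). Cx3cr1 differed by -0.51 ± 0.44 on the log2 scale (adjusted p = 0.585). Its annotated span overlaps other genes, so its counts are uncertain.

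**Figure D3:**
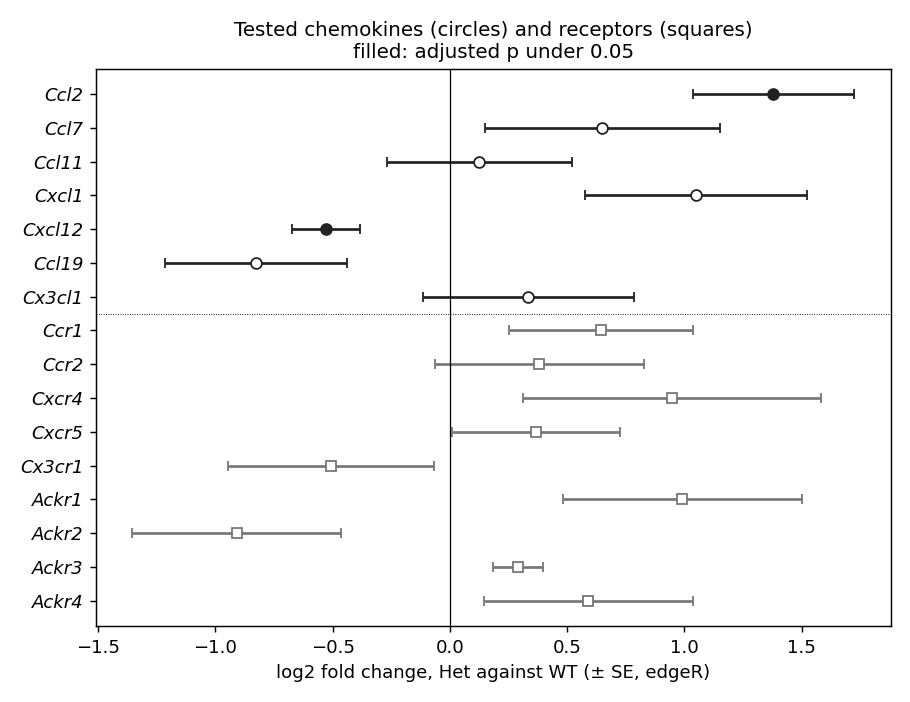
Log2 fold change of Het against WT (horizontal axis, ± SE, edgeR) for the 7 tested chemokines (circles) and 9 tested receptors that bind chemokines of the group (squares). Ccl2 at 1.38 and Cxcl12 at -0.53 are filled because they passed an adjusted p of 0.05, and no receptor did.

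No chemokine receptor passed. Of 23 signalling and atypical receptors 12 were tested; edgeR, DESeq2 and limma voom each called 0, and 1, Ackr3, had an unadjusted p under 0.05 in edgeR. Ccr2, which binds CCL2, CCL7 and CCL12, averaged 0.70 ± 0.38 CPM over the 5 WT libraries and 0.90 ± 0.29 CPM over the 6 Het libraries (SD, log2 fold change 0.38 ± 0.44, SE, edgeR adjusted p = 0.705). Ccr1 (0.64 ± 0.39, adjusted p = 0.402), the erythroid and venular scavenger Ackr1 (0.99 ± 0.51, 0.307), the inflammatory CC chemokine scavenger Ackr2 (-0.91 ± 0.45, 0.279) and the CCL19 scavenger Ackr4 (0.59 ± 0.45, 0.515) did not pass either. The annotated spans of Ackr1 and Ackr4 overlap Cadm3 and Acad11, so their counts are uncertain too. Single libraries moved several of these values: Ackr1 was 0.47 without Het 1, Ackr2 was -0.45 without WT 1, Ccr2 was 0.13 without WT 3 and Cxcr5 was 0.74 without WT 3. Ccr3 had at most 5 counts in a library and Ccr8 none in any. The median log2 fold change was 0.38 over the 7 tested signalling receptors and 0.29 over the 5 atypical ones, beside -0.0046 over all tested genes.

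Of 27 other chemokines 11 were tested and none passed in edgeR, DESeq2 or limma voom, with 0 at an unadjusted p under 0.05 in edgeR and a median log2 fold change of 0.39. The most abundant was Pf4, the platelet and macrophage chemokine CXCL4, with means of 19.5 ± 11.6 CPM over the 5 WT and 26.3 ± 6.32 CPM over the 6 Het libraries (SD). Of the 18 chemokines tested in all, Ccl2 was the 1 that passed as higher in Het, beside 2.65% of all tested genes, and limma voom did not call it (log2 fold change 1.35, adjusted p = 0.0501).

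Among 15 proteases that cleave or release chemokines, 10 were tested and 1 rose, Mmp3, the matrix metalloproteinase stromelysin 1, with a list median of 0.066. Mmp3 was at 3.97, 2.61, 5.08, 5.36 and 5.53 CPM in WT 1 to WT 5 and at 9.53, 11.0, 11.3, 5.62, 8.07 and 8.16 CPM in Het 1 to Het 6. The groups did not overlap, as for 2.41% of all tested genes in this direction, although Het 4 stood just above WT 5. The log2 fold change was 0.99 ± 0.23 (SE, edgeR adjusted p = 0.0191), and 1.19 ± 0.29 (adjusted p = 0.173) in the Xist-positive libraries.

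Most of the cytokines that induce chemokines were at or near 0 counts, and all 3 tested of 13 passed, beside 5.03% of all tested genes. Il33, an alarmin of fibroblast and endothelial nuclei, fell from a WT mean of 33.5 ± 8.31 CPM (SD, n = 5) to a Het mean of 17.3 ± 5.90 CPM (SD, n = 6; log2 fold change -0.96 ± 0.23, SE, edgeR adjusted p = 0.0262). Csf1, the growth factor of macrophages, rose from 12.9 ± 2.88 to 19.9 ± 2.60 CPM (0.62 ± 0.15, adjusted p = 0.0280). Il4, a type 2 cytokine, had 9 to 16 counts per WT library and 17 to 35 per Het library (1.34 ± 0.30, adjusted p = 0.0163). Its CPM did not overlap between the groups, as for 2.41% of all tested genes in this direction. With the sex score none of these genes nor Mmp3 passed in edgeR. The log2 fold change of Il4 was then 1.03 ± 0.39 (adjusted p = 0.328), against 1.34 without the score, while Il33 was at -0.96 ± 0.34 (0.295), Csf1 at 0.68 ± 0.21 (0.192) and Mmp3 at 1.21 ± 0.29 (0.0744). On log2(deposited CPM + 1), which understates changes of low genes, Il4 was at 0.71 ± 0.15 and still passed (limma adjusted p = 0.0125). Leaving out a single library ended the call of Il33 for WT 1, WT 3, WT 4, Het 4, Het 5 or Het 6 and that of Csf1 for Het 1, Het 2, Het 3, Het 5, WT 1, WT 2 or WT 3 (highest adjusted p 0.0674 and 0.0734). The inducers Tnf, Il1b and Il6 were too low to test. Of 12 NF-kB components and feedback targets, such as Nfkbia and Icam1, 11 were tested and none passed in edgeR, DESeq2 or limma voom (1 at an unadjusted p under 0.05 in edgeR, median 0.0060).

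**Figure D4:**
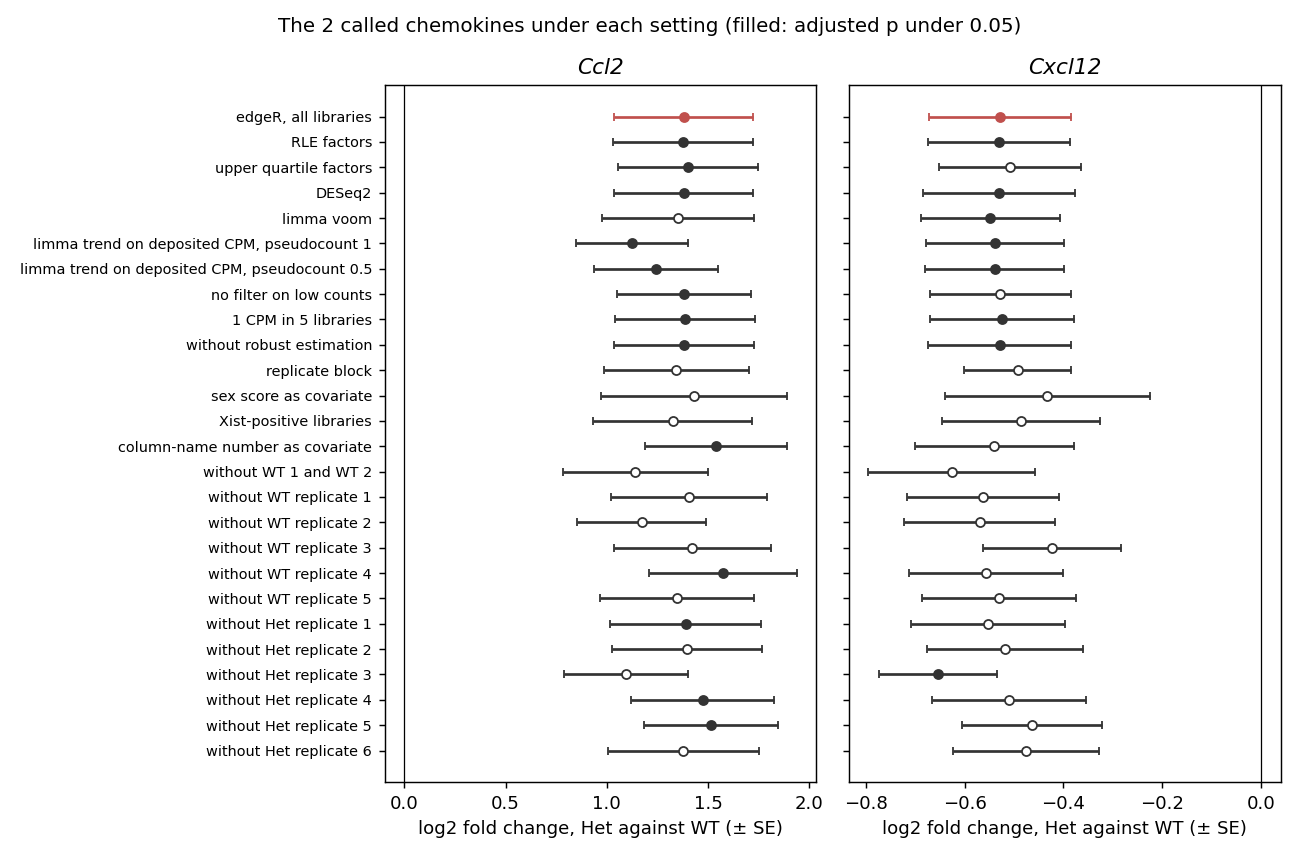
Log2 fold change of Het against WT (horizontal axes, ± SE) of Ccl2 (left) and Cxcl12 (right) under 26 settings, with edgeR on all libraries at the top; filled points passed an adjusted p of 0.05. Ccl2 lay between 1.10 and 1.57 and passed in 13 of the 25 alternatives, and Cxcl12 lay between -0.65 and -0.42 and passed in 8 of 25.

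The genes whose within-group pattern was most like that of Ccl2, among 10493 tested genes with at least 5 CPM and leaving out Gm and Rik placeholder names, were Cers4, a ceramide synthase (Pearson r 0.96 over 11 libraries after subtracting group means), Coro1a, a leukocyte actin regulator (0.96), and Tcf21, a transcription factor of fibroblast and epicardial lineages (0.94). Of these, Tcf21 rose in Het (1.02 ± 0.26 on the log2 scale, SE, edgeR adjusted p = 0.0318), and Cers4 (-0.01 ± 0.07, 0.969) and Coro1a (-0.05 ± 0.38, 0.969) did not pass. For Cxcl12 the closest were Smpd1, an acid sphingomyelinase (r 0.93), Gnl3, a nucleolar GTPase (0.92), and Igfbp4, an insulin-like growth factor binding protein (0.92). Without the 2 libraries farthest from the median of the member, r was 0.91 for Smpd1, 0.73 for Gnl3 and 0.84 for Igfbp4, and for Ccl2 it was 0.94 for Cers4, 0.91 for Coro1a and 0.85 for Tcf21. Igfbp4 fell (-0.52 ± 0.09, adjusted p = 0.00339), and Smpd1 (-0.25 ± 0.10, 0.165) and Gnl3 (0.28 ± 0.11, 0.169) did not pass. These are the highest values among many genes over few libraries and are given as a description.

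Of 16 marker lists of cell types, 11 had no gene past the threshold in edgeR. Among these 11, the endothelium list had Cldn5 called by both DESeq2 and limma voom, and 2 of its 10 tested markers had an unadjusted p under 0.05 in edgeR. The lists with calls in edgeR were those of macrophages, smooth muscle (Cnn1 fell), fibroblasts, skeletal muscle (Tnnt3 and Tnni2 fell) and heart muscle (Ryr2 rose). Of the 6 tested heart muscle markers only 2 were higher in Het by their fold change (median log2 value -0.22). In edgeR 4 of these 6 had an unadjusted p under 0.05, so Ryr2 does not stand for its list. Skeletal muscle markers summed to 21.3 to 43.1 CPM in WT and 8.83 to 16.5 CPM in Het (4 of 8 markers tested, 2 fell, Pvalb at 0 in all libraries). Tnnt3 alone made up 75.5% of this sum, and 2 of the 4 tested markers were higher in Het by their fold change. Erythroid markers summed to 671.9 to 1573 CPM in WT and 379.6 to 910.0 CPM in Het (7 of 7 tested, none passed in edgeR, 5 at an unadjusted p under 0.05 and 1 by DESeq2 and by limma voom). Their part in the chemokine results was not tested.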

How the data were processed

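Per the labels' protocols, RNA was made into unstranded libraries and read as single 75 nt reads. Tools and builds per the submitters' processing notes are GRCm38 and, with no roles stated, STAR (2.5.2a), limma, edgeR and DESeq2. Which program counted reads over which annotation is not stated in the material used. The authors deposited whole-number counts for 48733 rows, of which 24 name no mouse gene (at most 8.1e-05 percent of a library) and were dropped, a shorter count table of 19629 of these rows with identical values, and a signal named as TMM-scaled CPM, used in 2 alternatives. Without strand, overlapping genes cannot be told apart.

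Genes passing filterByExpr (minimum count 10, minimum total 15; 14757) were scaled by TMM and tested for Het against WT in all 11 libraries with edgeR 4.0.16 (R 4.3.3, robust quasi-likelihood, no covariate); the SE is the log2 fold change divided by the square root of F. CPM in the text uses these factors (0.979 to 1.031). Positions and exon lengths are from GENCODE M21 (GRCm38). Alternatives used DESeq2 1.42.0, limma 3.58.1, other scalings and filters, a replicate block, a sex score (log2 CPM with pseudocount 0.1, averaged over Uty, Kdm5d, Ddx3y and Eif2s3y, less the value of Xist), the number in the column names, and fewer libraries. P-values weigh the difference between the groups against the spread between these samples within a group.

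The members and lists were chosen with earlier results of these data known. All members were named, as were the called genes of the context lists, the receptors of the members, the cluster neighbours and, for each called member, the 3 genes closest in pattern; Gm17268, 4930578G10Rik, Ccl21a, Pf4 and the marker genes were named after their values were seen. On simulated counts for Het against WT (14757 genes), edgeR called 28.4% of the 67 genes given a 1.5-fold change, 68.7% of the 67 given a 2-fold change and 92.4% of the 66 given a 4-fold change. It made 133 calls in all, and 7 were wrong. Apart from depth, the simulated libraries of a group shared the same gene means, with no split by Xist status and no outlying libraries. These rates need not hold for the real calls.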

Additional observations from a re-analysis of the deposited data

Results flagged for a closer look

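Ccl2 in Het 3, at 15.5 CPM, stood far from the other 5 Het libraries, the next highest being 8.29 CPM. Cxcl12 in WT 3, at 433.6 CPM, stood far from the other 4 WT libraries, the next highest being 337.0 CPM. In each case the gap to the nearest library, as a share of the group's range (0.642 and 0.723), was above Dixon's 95% critical value for a group of that size. Chance flags about 1 in 20 groups, and 10 members in 2 groups were examined. Both genes are the members that passed the test. Without Het 3 the log2 fold change of Ccl2 was 1.10 (edgeR adjusted p = 0.0581), and without WT 3 that of Cxcl12 was -0.42 (adjusted p = 0.122).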

How the results depend on the processing

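Over 25 alternatives Ccl2 kept its direction and passed in 13, and Cxcl12 kept its direction and passed in 8. The number of members called, 2, was 1 with upper quartile factors, limma voom, no filter on low counts or the column-name number as a covariate, and 0 without WT 1 and WT 2, in Xist-positive libraries or with the sex score; leaving out 1 library gave 0 to 1. The count over all genes, 742, was 1295 with DESeq2, 34 in Xist-positive libraries, 125 with the sex score, 415 with the column-name number as covariate, 432 without both WT 1 and WT 2, and 458 (without WT 2) to 853 (without WT 4) with 1 library left out. With the replicate number as a block, 329 genes, 0 members, 0 chemokine proteases and 1 of the cytokine and NF-kB genes passed. Same-numbered libraries did not deviate together (r -0.21 to 0.06, 0 of 5 WT libraries closest to their own number). The labels do not say what the numbers stand for, and this check cannot show whether same-numbered libraries share a source. The protease count, 1, was 2 with DESeq2 and 0 without WT 1 and WT 2, in Xist-positive libraries or with either covariate (1 to 2 with 1 library left out). The count of cytokine and NF-kB genes, 3, was 1 with the column-name number or no filter, 0 without WT 1 and WT 2, in Xist-positive libraries or with the sex score, and 1 to 3 with 1 library left out. Ccl11 turned to -0.16 without WT 1 and WT 2, -0.074 without WT 2 and -0.069 without Het 3 (-0.074 to 0.48 with 1 library left out). Cx3cl1 turned to -0.093 without Het 2 and -0.056 with the column-name number (-0.093 to 0.46 with 1 left out). Cx3cr1 turned to 0.14 in Xist-positive libraries and to 0.061 with the sex score. Receptors and other chemokines gave 0 calls in all settings. Fewer libraries or a covariate leave fewer degrees of freedom; other causes were not tested. Depth limits Ccl8, Cxcl13 and Cxcl14, each with at most 7 counts in a library.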
